A study of Mus musculus with 24 samples.

Results

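The 10 immediate early genes Fos, Fosb, Jun, Junb, Egr1, Egr2, Egr3, Atf3, Ier2 and Nr4a1 were followed in 24 mouse hearts. They were chosen by symbol, and all 10 were found among the 41388 genes with an Ensembl identifier in the count table. Immediate early genes are transcribed within minutes of a stimulus from factors already present in the cell, such as serum response factor and CREB, without new protein synthesis, and their transcripts and many of their proteins are short-lived. Most encode transcription factors: Fos and Jun proteins pair as AP-1, Egr proteins bind GC-rich sites, and several members and their targets feed back on the pathway. In the heart they are known to respond to stretch, ischaemia, adrenergic drive and handling of the tissue, and in leucocytes to antigen receptor, Toll-like receptor and cytokine signals.

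RNA came from a portion of the heart of wild type male BALB/cAnNCrl mice (Balb/c in the labels) that were 8 to 10 weeks old at immunization. Experimental autoimmune myocarditis (EAM) was raised with 100 µg of myosin heavy chain peptide in 200 µl of an emulsion with SCFA, the adjuvant of the labels, on days 0 and 7. Control mice received the same volume of PBS in SCFA on those days, and both groups received pertussis toxin on day 0, so that every heart had been exposed to the adjuvants. Each of the 6 groups, EAM and control at day 10, 15 and 21 (D10, D15 and D21), held 4 hearts. Not every immunized mouse may develop the disease, and hearts with inflammation were preferred for RNA where they could be had. The labels name the hearts of a group as separate samples and do not say more about what separates them, so p-values measure the spread between these samples.

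Levels are given as CPM, read counts scaled to a common library size with TMM factors over all 24 libraries, and the 4 hearts of a group are listed in the order of their numbers. Libraries held between 15814863 and 24980864 counts, and the 3 counts that a count of 0 allows correspond to between 0.120 and 0.190 CPM. EAM and control hearts were compared within a day with edgeR's quasi-likelihood test, and a gene was called induced or repressed at a false discovery rate (the adjusted p) under 0.01 with at least a 2-fold change. The 7 cardiomyocyte markers summed to between 26638 and 33431 CPM in the 12 control hearts, as heart tissue should show, and to between 7230 and 32002 CPM in EAM hearts. Ptprc, which encodes the leucocyte surface protein CD45, ranged from 15.0 to 38.6 CPM in control hearts and from 27.7 to 305 CPM in EAM hearts. In such bulk tissue, more cells of a type and more RNA per cell cannot be told apart. The 4 EAM libraries of D21 carry another library code than the other 20, so at D21 library code and EAM cannot be told apart.

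In the control hearts the members spanned a wide range of levels per length, in CPM per kilobase of merged exons (mean ± SD, n = 12). Jun was the most abundant, at 26.1 ± 3.49 CPM per kilobase, followed by Ier2 at 15.9 ± 2.80 and Junb at 14.7 ± 5.05. Nr4a1 at 7.06 ± 1.90, Egr1 at 6.03 ± 2.47, Atf3 at 3.66 ± 0.931 and Fos at 2.74 ± 1.21 CPM per kilobase formed a middle range. Egr2 at 0.393 ± 0.181, Egr3 at 0.210 ± 0.101 and Fosb at 0.182 ± 0.0498 CPM per kilobase were the lowest. Ier2 and Junb, Nr4a1 and Egr1, Atf3 and Fos, and Egr3 and Fosb are neighbours whose mean levels differed by less than either SD.

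Promoter sequence bears on these genes because serum response factor binds the CArG box and CREB and ATF proteins bind the cAMP response element. RefSeq promoter entries on GRCm38.p6 were held for 7 of the 10 members (Atf3, Jun, Fosb, Junb, Egr2, Fos and Nr4a1), and none was found for Egr1, Egr3 and Ier2. The 100 bases before a start are shown for the 4 members with an entry that had the largest changes at D15. They are chr10:67537769-67537868 (plus strand, inside the annotated Egr2 span), chr1:191183334-191183433 (minus strand, at an internal start of Atf3, with 7 exon bases), chr12:85473790-85473889 (plus strand, before Fos) and chr8:84978749-84978848 (minus strand, before Junb). Capitals mark the CArG box, TGACGT or its complement ACGTCA, and TATAAA.
Egr2: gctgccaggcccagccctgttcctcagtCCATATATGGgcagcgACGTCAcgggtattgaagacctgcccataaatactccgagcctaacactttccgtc
Atf3: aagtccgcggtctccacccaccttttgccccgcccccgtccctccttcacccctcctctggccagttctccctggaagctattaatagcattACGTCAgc
Fos: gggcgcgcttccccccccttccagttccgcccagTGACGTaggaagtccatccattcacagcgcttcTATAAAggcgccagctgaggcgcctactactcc
Junb: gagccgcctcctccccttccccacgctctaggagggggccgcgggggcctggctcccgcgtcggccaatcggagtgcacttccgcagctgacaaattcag
Of the 7 members with an entry, Egr2 alone held a CArG box within 250 bases before a start, read on both strands, 72 bases before this one, and 1.47% of 32851 mouse promoters did. TATAAA stood 33 bases before the Fos start, and was found in 12.4% of all promoters. The shorter TGACGT, searched after these sequences had been seen, lay 66 bases before the start in Fos, 56 in Egr2 and 8 in Atf3, and in 6.47% of all promoters. TGACGTCA (1.55% of all promoters), TGACTCA, the AP-1 site (4.46%), and GCGTGGGCG, an Egr site (0.536%), were in none of the 7. The Junb window held none of these motifs. A match describes letters and not binding.

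At D15 the members moved together: all 10 had fitted log2 fold changes above 0, with a median of 1.73 against 0.02 over all genes tested, and 7 of 10 were induced. Among all 15693 genes tested, 18.1% were called higher and 12.9% lower, and no member was called lower. In 8 of 10 members every EAM heart lay above every control heart (34.6% of all genes did so, and 35.9% lay entirely below), and Egr1 and Nr4a1 were the exceptions. EAM D15 hearts had the highest group mean of all 6 groups for each of the 10 genes. The plot of levels by heart shows this peak against the D10 and D21 hearts.

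**Figure D1:**
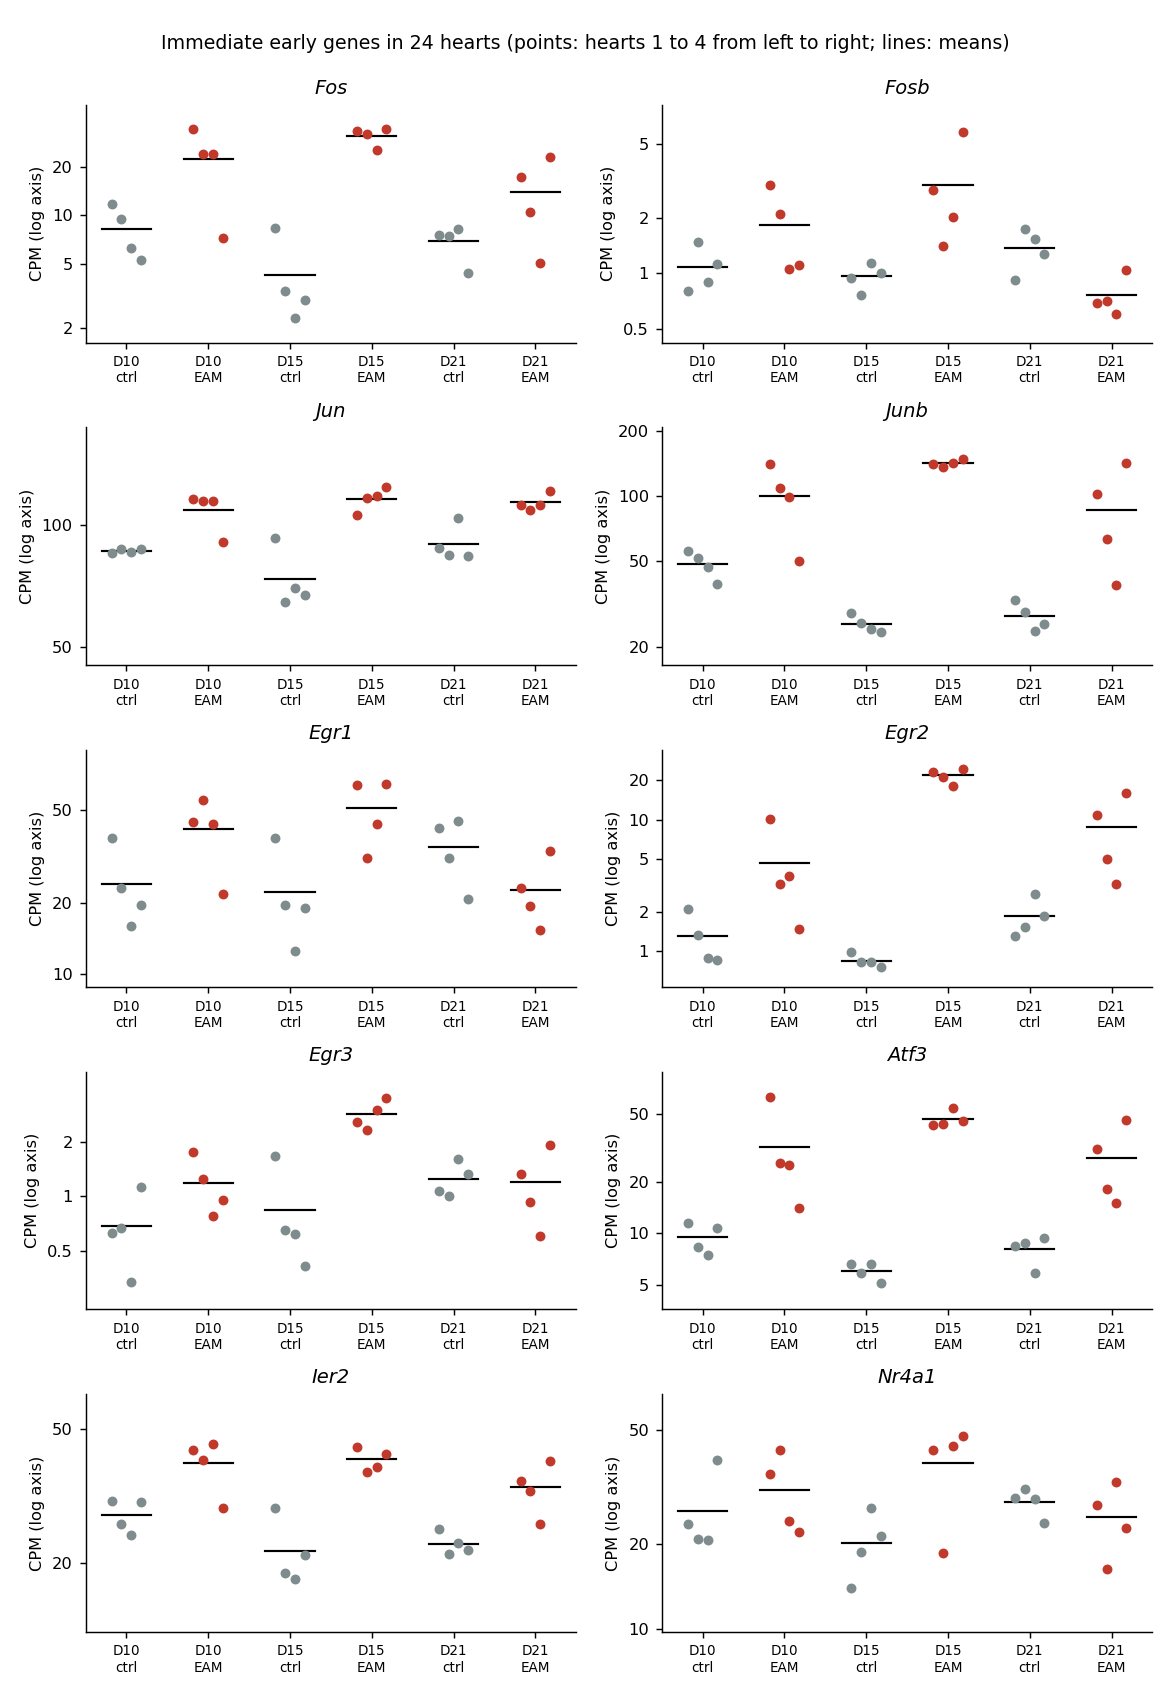
CPM (log axis, differing between panels) of the 10 genes in 24 hearts by group. Points are hearts in the order of their numbers, grey for control and red for EAM, and lines are means of 4. The D15 EAM hearts have the highest mean in every panel, from 25.4 times the lowest group mean for Egr2 to 1.57 times for Jun.

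Of the AP-1 genes, Fos (chr12:85473890-85477273, plus strand) encodes an AP-1 subunit that cannot pair with itself and needs a Jun partner. At D15 its level was 8.33, 3.42, 2.33 and 3.003 CPM in control hearts and 33.1, 31.98, 25.4 and 34.0 CPM in EAM hearts. The groups were far apart, with control heart 1 the highest of its group, and the log2 fold change was 2.89 (SE 0.34, edgeR adjusted p = 5.1e-05). Junb (chr8:84974484-84978718, minus strand), a Jun relative that is induced by cytokines as well as growth factors, had 28.7, 25.9, 24.2 and 23.5 CPM in control hearts and 141, 137, 142 and 149 CPM in EAM hearts. These were the tightest values of the set, with a coefficient of variation of 3.40% among the EAM hearts, and Junb was induced by 2.51 on the log2 scale (SE 0.08, edgeR adjusted p = 1.6e-08). Part of the Junb exons (173 bases) lies within the span of Prdx2 on the opposite strand. The library kit keeps the strand, but the sources used here do not give whether the counting used it.

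Jun (chr4:95049034-95052222, minus strand, a single exon), the partner of Fos, was already abundant and moved little. It had 93.0, 64.6, 69.8 and 67.4 CPM in D15 control hearts and 106, 116, 118 and 124 CPM in EAM hearts. The groups did not overlap and the adjusted p was 4.5e-04 with edgeR, but the log2 fold change of 0.69 (SE 0.12) was under 2-fold, so Jun was not called. Its exons share 689 bases with the span of the antisense gene Junos, under the same limit on strand. Fosb (chr7:19302696-19310051, minus strand), a Fos relative near the lower end of the levels, had 0.937, 0.767, 1.14 and 1.001 CPM in D15 control hearts and 2.83, 1.401, 2.03 and 5.83 CPM in EAM hearts. EAM heart 4 was the highest by far, and the call (log2 fold change 1.68, SE 0.44, edgeR adjusted p = 0.00682) was lost without any given control heart or without EAM heart 1 (log2 fold change 1.60 to 1.78, adjusted p up to 0.0205), and with limma-voom (adjusted p = 0.0278).

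Atf3 (chr1:191170296-191218039, minus strand), a stress-induced ATF family factor known to restrain inflammatory genes, had 6.61, 5.84, 6.58 and 5.12 CPM in D15 control hearts. EAM hearts had 42.8, 43.8, 53.9 and 45.6 CPM. No EAM heart came near the controls, and Atf3 was induced by 2.98 on the log2 scale (SE 0.11, edgeR adjusted p = 3.9e-08).

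The Egr genes differed widely from each other. Egr2 (chr10:67535475-67542188, plus strand), a zinc finger factor of myeloid and T cells and of Schwann cells, had 0.990, 0.826, 0.828 and 0.765 CPM in D15 control hearts and 23.0, 21.2, 18.1 and 24.3 CPM in EAM hearts. The log2 fold change of 4.69 (SE 0.15, edgeR adjusted p = 1.8e-08), a 25.9-fold induction, was the largest of the 10 genes. Egr1 (chr18:34859823-34864984, plus strand), the widely expressed member of the family, had 38.1, 19.6, 12.5 and 19.1 CPM in control hearts and 63.5, 31.1, 43.7 and 64.4 CPM in EAM hearts. Control heart 1 lay above EAM heart 2, so the groups overlapped. Egr1 was called with a log2 fold change of 1.22 (SE 0.34, edgeR adjusted p = 0.00938), but the call was lost without control heart 2, 3 or 4 or EAM heart 1 or 4 (1.02 to 1.17, adjusted p up to 0.0273), and with all 12 control hearts in the fit (log2 fold change 0.95). Egr3 (chr14:70077203-70082614, plus strand), which acts in lymphocytes and muscle spindles, had 1.67, 0.649, 0.621 and 0.412 CPM in control hearts and 2.58, 2.35, 3.04 and 3.51 CPM in EAM hearts. The groups did not overlap, although control heart 1 was much above its group, and Egr3 was induced by 1.79 on the log2 scale (SE 0.36, edgeR adjusted p = 0.00150).

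Ier2 and Nr4a1 were the remaining genes that were not called at D15. Ier2 (chr8:84661331-84662852, minus strand, a single exon), a nuclear immediate early protein outside the Fos, Jun and Egr families, had 29.2, 18.7, 17.97 and 21.2 CPM in D15 control hearts and 44.3, 37.3, 38.6 and 42.2 CPM in EAM hearts. Its groups did not overlap and the edgeR adjusted p was 3.0e-04, with a log2 fold change of 0.94 (SE 0.15) just under 2-fold. It was called without control heart 1 (log2 fold change 1.12) or EAM heart 2 (1.005), and with scaling to total counts (1.08). Nr4a1 (chr15:101254269-101274795, plus strand), the orphan nuclear receptor Nur77 that marks antigen receptor signalling in T cells, had 14.01, 18.7, 26.7 and 21.3 CPM in control hearts and 42.6, 18.6, 44.0 and 47.8 CPM in EAM hearts. EAM heart 2 was at the level of the controls and the other 3 were above them. The log2 fold change was 0.96 (SE 0.29, edgeR adjusted p = 0.0144), and Nr4a1 was called without EAM heart 2 (log2 fold change 1.22, adjusted p = 2.5e-04) and with scaling to total counts (1.10).

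Markers of several other cells, and some of stress, also differed at D15. Over all genes 18.1% were called higher and 12.9% lower. Ptprc was 16.8, 16.5, 17.8 and 20.7 CPM in control hearts and 305, 256, 244 and 300 CPM in EAM hearts. The 8 monocyte and macrophage markers were all called higher, and summed to between 3151 and 4695 CPM in EAM hearts against 501 to 566 CPM in control hearts. The 5 neutrophil markers (514 to 818 CPM against 15.7 to 78.0) and the 6 T cell markers (38.8 to 58.8 CPM against 1.65 to 2.66) were also all called higher. Of the 7 cardiomyocyte markers 4 were called lower and none higher, and their sum was 7230 to 18509 CPM in EAM hearts against 26638 to 31296 CPM in control hearts. Of 8 heat shock genes, which tissue stress also raises, 7 were above 0 and 1 below. The inducible chaperones Hspa1a (log2 fold change 2.52) and Hspa1b (2.15), 2 of 8, were called higher. The 8 summed to 1991 to 2365 CPM against 1721 to 1925 CPM. All 5 endothelial markers were below 0, with 1 called lower, and 0 of 4 fibroblast markers were called. The part of these in the changes of the immediate early genes was not tested.

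**Figure D2:**
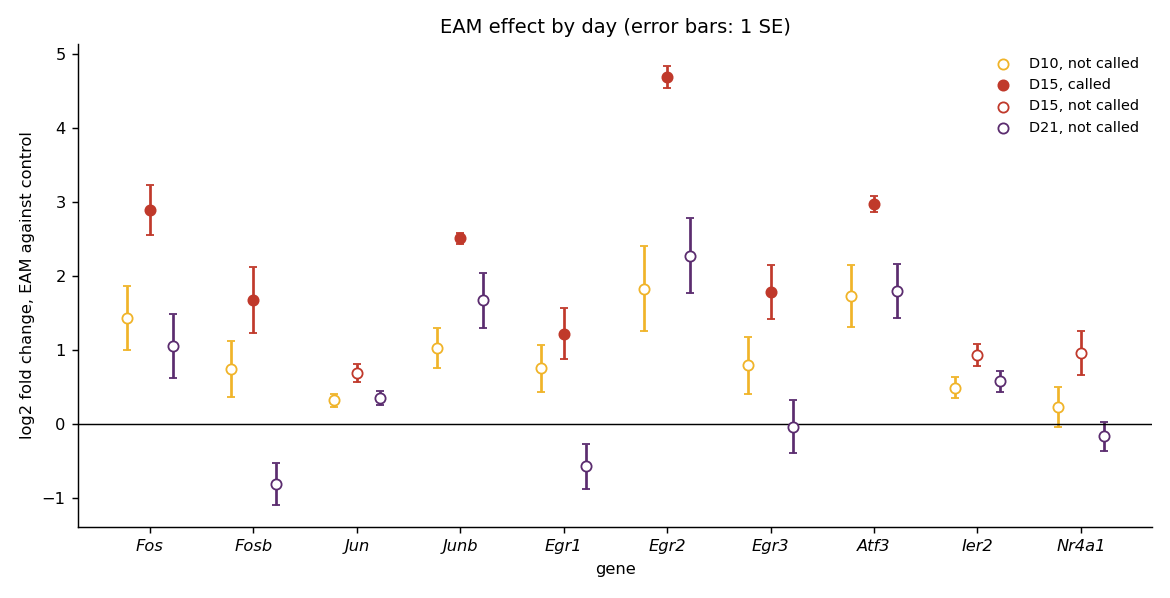
Fitted log2 fold changes of EAM against control hearts for the 10 genes at D10, D15 and D21, with bars of 1 SE. Filled points passed the edgeR limits. Only D15 has filled points, 7 of 10, and 4 genes lie below 0 at D21 (Fosb, Egr1, Egr3 and Nr4a1).

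At D10 no member was called, and no gene of the 15029 tested was either (0% higher and 0% lower). The smallest adjusted p over all genes was 0.254, and 2292 genes had an unadjusted p under 0.05. All 10 members had log2 fold changes above 0, with a median of 0.77 against -0.01 over all genes, and 7 of 10 had an unadjusted p under 0.05. DESeq2 called 1 member at D10, Atf3 (0.319% of all genes were called higher), while edgeR's likelihood ratio test and limma-voom called 0. With all 12 control hearts as the comparison, 4 were called (Fos, Junb, Egr2 and Atf3), against 4.07% of all genes called higher. Over D10, D15 and D21 the control means (n = 4 each) were 8.19, 4.27 and 6.90 CPM for Fos, 48.4, 25.6 and 27.8 CPM for Junb and 9.51, 6.04 and 8.13 CPM for Atf3. For Egr2 they were 1.30, 0.852 and 1.85 CPM. The part of these means, or of the larger number of controls, in the 4 calls was not tested. Jun and Atf3 were the 2 members without overlap between the groups, against 4.41% of all genes with every EAM heart above and 3.75% with every EAM heart below. The 8 monocyte and macrophage markers were all above 0 too (median 0.89, 5 with an unadjusted p under 0.05) and summed to 801 to 2789 CPM against 518 to 1110 CPM. All 5 neutrophil markers had an unadjusted p under 0.05 (median 1.07; 164 to 809 CPM against 124 to 227 CPM). The cardiomyocyte sum of EAM heart 1 was 17760 CPM, against 28198 to 33431 CPM in the controls. All 7 cardiomyocyte and all 5 endothelial markers were below 0. The 3 adipocyte markers were above 0 (median 1.13, 2 with an unadjusted p under 0.05; 5.83 to 19.2 CPM against 3.82 to 8.66 CPM). The 3 T cell markers tested, of 6, were above 0 (median 1.49), and the 6 summed to 3.43 to 24.3 CPM against 2.53 to 4.17 CPM. The 8 heat shock genes were all above 0 (median 0.35, 2 with an unadjusted p under 0.05) and summed to 2821, 2205, 2537 and 2308.4 CPM in EAM hearts 1 to 4, with control hearts between 1904 and 2308.0 CPM. The part of these in the changes of the members was not tested.

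Atf3 had the lowest unadjusted p of the set at D10. Its level was 11.5, 8.35, 7.47 and 10.8 CPM in control hearts and 62.8, 25.8, 24.9 and 14.04 CPM in EAM hearts, with a log2 fold change of 1.74 (SE 0.42, edgeR adjusted p = 0.328). All 4 EAM hearts were above the controls, heart 1 by the most. Egr2 had 2.11, 1.33, 0.898 and 0.859 CPM in control hearts and 10.2, 3.23, 3.73 and 1.48 CPM in EAM hearts, with a log2 fold change of 1.83 (SE 0.58, edgeR adjusted p = 0.328). Heart 4 lay among the controls, and with a library left out the log2 fold change of Egr2 ranged from 1.09 to 2.16. Fos had 11.7, 9.53, 6.23 and 5.29 CPM in control hearts and 34.3, 24.1, 23.99 and 7.23 CPM in EAM hearts, with a log2 fold change of 1.44 (SE 0.44, edgeR adjusted p = 0.328). Here too heart 4 lay among the controls and the other 3 EAM hearts were above them.

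Junb had 55.7, 51.8, 47.1 and 39.0 CPM in D10 control hearts and 141, 109, 98.9 and 49.8 CPM in EAM hearts, with a log2 fold change of 1.03 (SE 0.27, edgeR adjusted p = 0.328). Egr1 had 38.0, 23.3, 16.0 and 19.6 CPM in control hearts and 44.4, 55.2, 43.5 and 21.8 CPM in EAM hearts, with a log2 fold change of 0.75 (SE 0.32, edgeR adjusted p = 0.328). In both genes 3 EAM hearts lay above all controls. Jun had 85.0, 87.0, 85.8 and 87.2 CPM in control hearts and 116, 114, 114 and 90.9 CPM in EAM hearts, a log2 fold change of only 0.32 (SE 0.09) between groups that did not overlap. The control values of Jun were close together, with a coefficient of variation of 1.16%. Ier2 had 30.5, 26.2, 24.2 and 30.3 CPM in control hearts and 43.3, 40.3, 45.2 and 29.1 CPM in EAM hearts, with a log2 fold change of 0.49 (SE 0.14) and heart 4 among the controls.

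The remaining 3 genes overlapped more at D10. Fosb had 0.799, 1.49, 0.898 and 1.12 CPM in control hearts and 3.005, 2.10, 1.06 and 1.11 CPM in EAM hearts. Egr3 had 0.628, 0.666, 0.337 and 1.12 CPM in control hearts and 1.77, 1.25, 0.779 and 0.950 CPM in EAM hearts. Nr4a1 had 23.5, 20.8, 20.6 and 39.4 CPM in control hearts and 35.1, 42.5, 24.1 and 21.9 CPM in EAM hearts. Their log2 fold changes were 0.74, 0.79 and 0.23 in that order (SE 0.38, 0.38 and 0.27). With a library left out they ranged from 0.38 to 0.95, from 0.53 to 1.11 and from 0.046 to 0.50.

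The 4 EAM hearts of D10 were not alike. In heart 2 all 10 members were above every control heart of the day (25.8% of all genes tested were), whereas its Ptprc, at 27.7 CPM, lay within the controls (38.6, 33.9, 28.5 and 23.9 CPM). Its monocyte and macrophage markers summed to 801 CPM, its neutrophil markers to 164 CPM and its T cell markers to 3.57 CPM, each within the range of the controls (518 to 1110, 124 to 227 and 2.53 to 4.17 CPM). Its heat shock genes summed to 2205 CPM and its cardiomyocyte markers to 31447 CPM, also within the control ranges of 1904 to 2308 and 28198 to 33431 CPM. Its fibroblast markers, at 1822 CPM, lay above the controls (1153 to 1601 CPM), and its smooth muscle and pericyte markers at 917 CPM (962 to 1079) and red blood cell markers at 173 CPM (202 to 280) lay below them. Heart 1 had 9 members above every control (37.2% of all genes) and the highest Ptprc of the day, 194 CPM. Heart 3 had 7 (33.9%), with Ptprc at 56.7 CPM. In heart 4, with Ptprc at 41.6 CPM, 2 members were above every control (21.0%), and it had the lowest level of the 4 for 8 of 10 genes. These counts describe single hearts chosen after their values were seen, and no test was made of them.

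**Figure D3:**
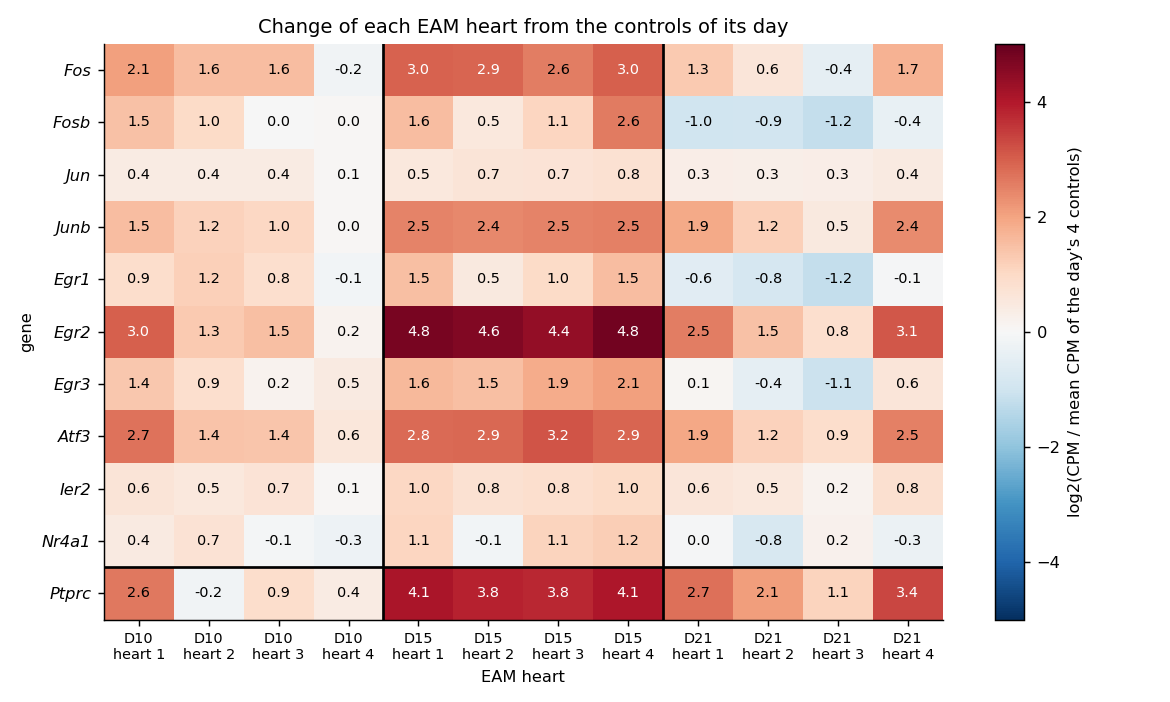
Each EAM heart's log2 ratio to the mean CPM of the 4 control hearts of its day, for the 10 genes and for Ptprc in the bottom row, with red above and blue below the controls. In heart 2 of D10 the 10 genes are above 0 while Ptprc is at -0.2, and at D21 Fosb and Egr1 are below 0 in all 4 hearts while Ptprc is above 0.

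The EAM effect was larger at D15 than at D10 in 2 members, by the contrast of the effects in a fit of all 24 hearts (5.38% of 16318 genes tested were called higher and 7.35% lower). Egr2 differed by 2.81 on the log2 scale (SE 0.73, edgeR adjusted p = 0.00516) and Junb by 1.43 (SE 0.41, edgeR adjusted p = 0.00850). The other 8 differences were above 0 and not called. From D10 to D15 the Junb mean fell from 48.4 to 25.6 CPM in control hearts. In EAM hearts it rose from 99.6 to 142 CPM, so the Junb contrast holds a fall in the controls as well. The Egr2 mean went from 1.30 to 0.852 CPM in control hearts and from 4.66 to 21.7 CPM in EAM hearts. With limma-voom the Egr2 call was lost (3.01, adjusted p = 0.0106), and without a filter on low counts the Junb call was (1.45, edgeR adjusted p = 0.0112). With each library left out in turn, the Egr2 call held in 17 of 24 fits and was lost without D10 control heart 1 or 2, D10 EAM heart 2 or 3, D15 control heart 2 or 4 or D15 EAM heart 4 (difference 2.48 to 2.80, adjusted p up to 0.0167). The Junb call held in 6 of 24, namely without D10 control heart 4, D10 EAM heart 1 or any of the 4 D21 EAM hearts, and was lost in the other 18 fits (difference 1.21 to 1.49, adjusted p up to 0.0183). Without D10 EAM heart 1, Atf3 was called as well (1.76, edgeR adjusted p = 0.00126), and in no other of these fits.

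At D21 the members parted. None was called in the fit of the 8 hearts, against 4.13% of 15266 genes called higher and 1.16% lower. There were 6 members with log2 fold changes above 0 and 4 below, and the median was 0.47 against -0.01 over all genes. An unadjusted p under 0.05 was reached by 7 of 10, 6 of them higher and Fosb lower, and by 7083 of the 15266 genes. DESeq2 (8.93% of all genes called higher) and edgeR's likelihood ratio test (8.88%) each called 3 members (Junb, Egr2 and Atf3), while limma-voom called 0. Jun, Junb, Egr2, Atf3 and Ier2 had every EAM heart above every control heart (17.8% of all genes did, and 18.7% had every EAM heart below), and no member had every EAM heart below.

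Egr2, Atf3 and Junb had the largest log2 fold changes at D21. Egr2 had 1.32, 1.54, 2.71 and 1.84 CPM in control hearts and 10.8, 5.07, 3.27 and 16.1 CPM in EAM hearts, with a log2 fold change of 2.28 (SE 0.51, edgeR adjusted p = 0.0143). Atf3 had 8.44, 8.83, 5.86 and 9.37 CPM in control hearts and 31.3, 18.1, 15.1 and 46.1 CPM in EAM hearts, with a log2 fold change of 1.80 (SE 0.36, edgeR adjusted p = 0.0105). Junb had 32.9, 28.9, 23.8 and 25.5 CPM in control hearts and 102, 63.2, 38.5 and 142 CPM in EAM hearts, with a log2 fold change of 1.67 (SE 0.37, edgeR adjusted p = 0.0137). In all 3 genes every EAM heart was above the controls and the EAM hearts were spread widely, with heart 4 the highest and heart 3 the lowest. With the replicate number as a block, Atf3 was called (log2 fold change 1.67, SE 0.23, edgeR adjusted p = 0.00766, with 3.94% of all genes called higher), and the other 9 were not. Without EAM heart 3, Fos, Junb, Egr2 and Atf3 were called, with log2 fold changes of 1.32, 1.91, 2.54 and 1.996, against 9.78% of all genes called higher.

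Fos had 7.57, 7.39, 8.23 and 4.40 CPM in D21 control hearts and 17.2, 10.51, 5.08 and 23.0 CPM in EAM hearts. Heart 3 lay among the controls, and the log2 fold change was 1.05 (SE 0.43, edgeR adjusted p = 0.0893). Jun (87.7, 84.1, 104 and 83.7 CPM in control hearts; 112, 109, 112 and 121 CPM in EAM hearts) had a log2 fold change of 0.36 (SE 0.10, edgeR adjusted p = 0.0240). Ier2 (25.3, 21.3, 23.0 and 21.9 CPM in control hearts; 35.1, 32.6, 26.2 and 40.2 CPM in EAM hearts) had a log2 fold change of 0.58 (SE 0.14, edgeR adjusted p = 0.0196). In both the groups did not overlap, and the gap between them was narrow.

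The 4 genes with log2 fold changes below 0 at D21 had all been above 0 at D15. Fosb had 0.915, 1.73, 1.53 and 1.28 CPM in control hearts and 0.690, 0.708, 0.601 and 1.05 CPM in EAM hearts, with a log2 fold change of -0.81 (SE 0.28, edgeR adjusted p = 0.0546). Only heart 4 of the EAM hearts reached into the control range. Egr1 had 41.8, 31.3, 44.7 and 20.7 CPM in control hearts and 23.3, 19.5, 15.3 and 33.4 CPM in EAM hearts, with a log2 fold change of -0.57 (SE 0.30, edgeR adjusted p = 0.167). These groups overlapped, with 2 EAM hearts below all controls. Egr3 had 1.07, 1.01, 1.62 and 1.33 CPM in control hearts and 1.33, 0.926, 0.601 and 1.93 CPM in EAM hearts, and Nr4a1 had 29.0, 31.0, 28.7 and 23.7 CPM in control hearts and 27.3, 16.2, 33.0 and 22.6 CPM in EAM hearts. Their log2 fold changes were -0.03 (SE 0.36) and -0.16 (SE 0.20), and the sign of both turned when all 12 control hearts were used (0.41 and 0.03).

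The fall of the EAM effect from D15 to D21 was called in Fosb, which differed by -2.48 on the log2 scale (SE 0.57, edgeR adjusted p = 0.00430). Among all 16318 genes, 0.919% were called lower and 2.74% higher in this contrast. The call was lost with the replicate number as a block (difference -2.31, adjusted p = 0.0128), with limma-voom (-2.22, adjusted p = 0.0163) and without D15 control heart 2, D15 EAM heart 4, D21 control heart 3 or D21 EAM heart 2 or 3, with differences from -2.46 to -1.96 and adjusted p up to 0.0113. The limma-voom fit called Egr3 in its place (-2.03, adjusted p = 0.00751). All 10 differences were below 0. The D21 EAM libraries carry another library code than the rest, so in this contrast the change between days and library code cannot be told apart. At a false discovery rate under 0.05 and 2-fold, 6 members passed (2.65% of all genes were lower by these limits), with Egr1 at -1.78 (SE 0.51, edgeR adjusted p = 0.0143), Egr2 at -2.41 (SE 0.70, adjusted p = 0.0158), Egr3 at -1.82 (SE 0.54, adjusted p = 0.0183), Fos at -1.84 (SE 0.64, adjusted p = 0.0359) and Nr4a1 at -1.10 (SE 0.41, adjusted p = 0.0475) beside Fosb. This contrast and that of D15 and D10 share the D15 hearts.

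Within the D21 EAM group the order of the hearts was the order of Ptprc for most members. Ptprc was 149, 96.2, 48.9 and 228 CPM in these hearts and 26.7, 18.4, 15.0 and 29.4 CPM in the controls, so the order was heart 4, 1, 2 and 3. Fos, Junb, Egr1, Egr2, Egr3, Atf3 and Ier2, 7 of 10 members, had the same order, as had 18.7% of the 15266 genes tested. Egr1 had this order while its mean was below that of the controls. The order was not particular to Ptprc. The cardiomyocyte sum had exactly the reverse order, at 17450, 24039, 32002 and 13514 CPM in EAM hearts 1 to 4, and was below all controls (27572 to 29372 CPM) in 3 of them. The red blood cell sum had the reverse order as well, at 233, 344, 573 and 131 CPM, with control hearts between 87.5 and 246 CPM. At D10 and D15 no member had the order of Ptprc (9.91% and 3.17% of all genes did). The D21 EAM hearts also differed from their controls in heat shock genes, which summed to 2217 to 3055 CPM against 1683 to 1953 CPM, and in 3 adipocyte markers, which summed to 0.110 to 2.56 CPM against 7.99 to 23.8 CPM. Their 8 monocyte and macrophage markers summed to 1199 to 3976 CPM against 451 to 693 CPM, with 4 of 8 called higher. Neutrophil markers (102 to 383 CPM against 11.5 to 91.3) and T cell markers (15.4 to 56.9 CPM against 2.49 to 3.58) were also above the controls. Smooth muscle and pericyte markers (482 to 891 CPM against 1156 to 1187) and endothelial markers (651 to 1055 CPM against 1134 to 1336) were below them in every EAM heart. The part of these in the values of the immediate early genes was not tested.

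Genes of the same family were also compared by the ratio of their reads within a library, which needs no scaling between libraries. These ratios were picked after the values had been seen, and their 12 tests are two-sided exact permutation tests over 4 against 4 hearts, whose smallest possible p is 0.0286. None of the 12 passed after adjustment, the smallest adjusted p being 0.0686. Ratios whose groups were fully separated had the smallest possible p, and even these had this adjusted p. Not passing therefore does not show that a ratio was unchanged. In D15 control hearts there were 0.0260, 0.0422, 0.0661 and 0.0401 Egr2 reads per Egr1 read, and in EAM hearts 0.363, 0.682, 0.414 and 0.377. At D21 the ratio was 0.0316, 0.0492, 0.0607 and 0.0889 in control hearts and 0.466, 0.260, 0.214 and 0.481 in EAM hearts. EAM hearts lay above all controls on each day, at D10 by a small margin (0.230, 0.0585, 0.0857 and 0.0676 against 0.0556, 0.0571, 0.0561 and 0.0438). The log2 differences were 0.83, 3.43 and 2.63 at D10, D15 and D21 (SE 0.45, 0.35 and 0.43, exact permutation p = 0.0286 each, adjusted p = 0.0686 over the 12 tests).

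Fos and Fosb were compared in the same way, and at D21 there were 8.28, 4.28, 5.37 and 3.44 Fos reads per Fosb read in control hearts and 25, 14.8, 8.44 and 21.9 in EAM hearts. The log2 difference was 1.68 (SE 0.44, exact permutation p = 0.0286, adjusted p = 0.0686), and at D10 and D15 the groups overlapped (exact permutation p = 0.257 and 0.0571). Junb per Jun was 0.309, 0.400, 0.347 and 0.350 in D15 control hearts and 1.34, 1.18, 1.21 and 1.2 in EAM hearts, a log2 difference of 1.81 (SE 0.09, exact permutation p = 0.0286, adjusted p = 0.0686). At D15 Junb had fewer reads than Jun in all 4 control hearts and more in all 4 EAM hearts. The groups overlapped at D10 and D21 (exact permutation p = 0.114 and 0.0571). For Egr3 per Egr1 the exact permutation p was 0.886, 0.0857 and 0.257 by day. With same-numbered hearts of D21 taken as pairs, a test chosen after seeing the data, the exact p over 16 arrangements was 0.125 for Egr2 per Egr1, Fos per Fosb and Junb per Jun, each higher in the EAM heart of 4 of 4 pairs. That is the smallest p this paired design allows, so no ratio could pass in it, and for Egr3 per Egr1 the exact p was 0.375, with 3 of 4 pairs higher.

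**Figure D4:**
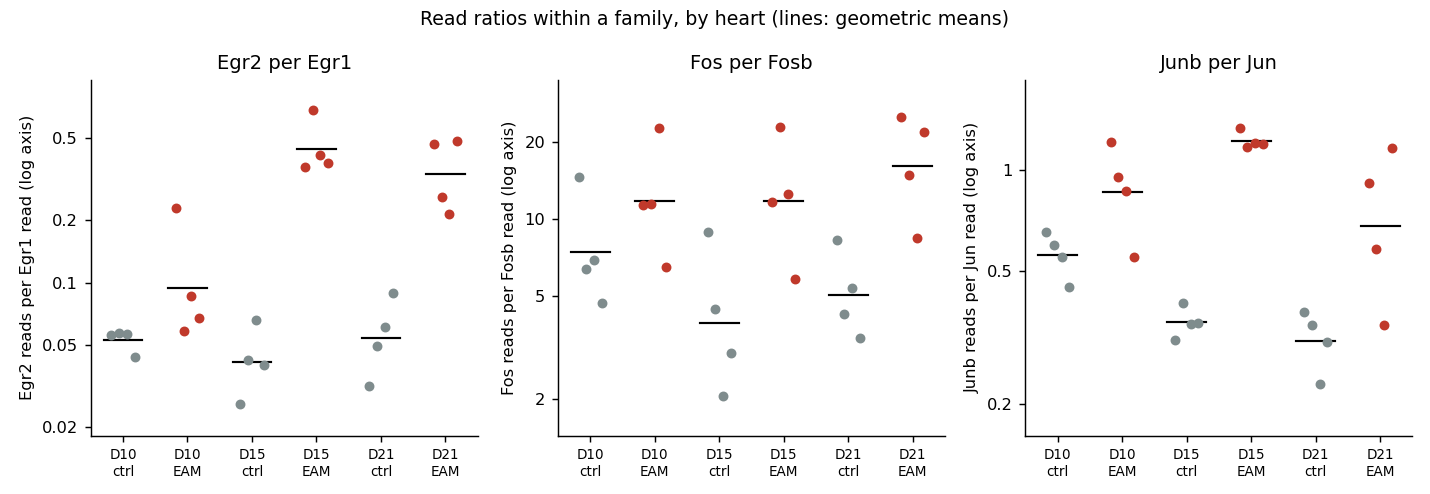
Reads of 1 gene per read of its relative in each heart (log axes), with lines at geometric means of 4 hearts. Egr2 per Egr1 is above all controls in every EAM heart on each day and stays high at D21 (geometric mean 0.334 against 0.0538), Fos per Fosb separates at D21, and Junb per Jun separates at D15.

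Control hearts alone showed how far these genes vary without the peptide. No member was called between control days, against 0% of genes called higher and 0.0718% lower from D10 to D15, 0.607% higher and 0.353% lower from D10 to D21, and 0% in either direction from D15 to D21 (15311 genes tested). With edgeR an unadjusted p under 0.05 was reached by 4, 2 and 4 members in these comparisons and by 2575, 4309 and 1491 of all genes in the same order, and DESeq2, the likelihood ratio test and limma-voom called 0 in each. Junb was the exception on adjusted p alone, with control levels lower by less than 2-fold at D15 than at D10 (log2 fold change -0.91, SE 0.11, edgeR adjusted p = 0.00425) and at D21 than at D10 (-0.80, SE 0.11, adjusted p = 0.00294). Its lowest D10 control heart (39.0 CPM) lay above all 8 later control hearts (23.5 to 32.9 CPM). Atf3 had a log2 fold change of -0.64 from D10 to D15 (SE 0.17, edgeR adjusted p = 0.0713) and Egr2 of 1.11 from D15 to D21 (SE 0.30, edgeR adjusted p = 0.461). The fitted changes were below 0 in 9 of 10 members from D10 to D15 and above 0 in all 10 from D15 to D21. At an unadjusted edgeR p under 0.05 from D10 to D15, 5 of 5 neutrophil and 7 of 8 monocyte and macrophage markers were lower. So were 5 of 8 heat shock genes, while 3 of 3 adipocyte markers were higher. The part of these in the changes of the members was not tested.

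The spread between hearts of a group differed among the members. Their median coefficient of variation was 31.4%, 20.6% and 20.7% in the controls of D10, D15 and D21, against 8.85%, 8.38% and 8.57% over all genes tested. In EAM hearts it was 37.2% at D10 and 40.8% at D21, against 16.7% and 20.2% over all genes, while at D15 both medians were 12.5%. Single members could lie below the all-gene median, as Jun did in D10 control hearts (1.16%) and in the EAM hearts of D10, D15 and D21 (10.99%, 6.47% and 4.78%). These spreads were not tested. Single hearts led their group in many members: D15 control heart 1 was the highest for 8 members, D15 EAM heart 4 for 8, D10 EAM heart 1 for 7 and D21 EAM heart 4 for 9. How often these hearts led over all genes was not counted, so this is not shown to be particular to the members. When each gene's deviation from its group mean, in log2(CPM + 1), was set against the mean deviation of the other 9 over 24 hearts, Pearson's r was 0.84 for Fos and for Junb, 0.83 for Egr2, 0.79 for Ier2 and 0.77 for Atf3. It was 0.72 for Egr1, 0.70 for Egr3, 0.59 for Jun, 0.49 for Fosb and 0.13 for Nr4a1. Hearts share depth and cell makeup across genes, and these correlations are a description. Among 14272 other genes averaging at least 1 CPM, those most like the mean of the members were Brd2, a bromodomain protein of transcribed chromatin (r = 0.925), Rgs16, an inhibitor of G protein signalling (0.871), Tfe3, a lysosomal and stress transcription factor (0.870), Gm8399 (0.869) and Otulin, a deubiquitinase of linear chains (0.865).

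Of the genes of the same pathway, 5 lists by role were followed, and their counts stand against 18.1% of all genes called higher at D15 and 4.13% at D21. No test compared the lists with each other or with the members. Of 15 other immediate early transcription factors 13 were tested and 10 of 13 were induced at D15 (median log2 fold change 1.32), led by Myc (3.20, SE 0.13), a driver of growth, and Cebpb (2.74, SE 0.19), a factor of myeloid and acute-phase genes. At D21 Ier5 alone, 1 of 13, was called (1.02, SE 0.15, edgeR adjusted p = 0.00558). Of 13 other AP-1 and partner subunits 8 of 13 were induced at D15 (median 1.18), and Batf2 (4.10, SE 0.20) and Batf3 (3.79, SE 0.19), BATF factors of macrophages and dendritic cells, had the largest changes. Both were called at D21, 2 of 13 (Batf3 2.98, SE 0.45, and Batf2 2.79, SE 0.55), when no member was.

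Of 20 feedback inhibitors, such as dual-specificity phosphatases and SOCS proteins, 12 of 20 were induced at D15 (median 1.03), with Socs3, which blocks gp130 and JAK signalling, at 4.73 (SE 0.12) and Dusp2, a nuclear MAP kinase phosphatase of leucocytes, at 3.34 (SE 0.23). Socs3, 1 of 20, was the only one called at D21 (3.49, SE 0.66). Of 11 early-response effectors 10 were tested and 5 of 10 were induced at D15 (median 0.81), led by Plaur, the urokinase receptor (4.44, SE 0.13), and Lif, an IL-6 family cytokine (4.14, SE 0.39), and 0 of 10 at D21. Of 19 upstream kinases and factors only Mkl1, a cofactor of serum response factor, was induced at D15 (1.34, SE 0.10), with a list median of 0.14, and 0 of 19 were called at D21. Without the fold limit, 12 of these 19 had an edgeR adjusted p under 0.01 at D15, as had 10100 of all 15693 genes. With an unadjusted p under 0.05, 8 of the 19 were higher and 6 lower, and 6122 of all genes were higher. None of these lists had a gene called lower on any day or a gene called by edgeR at D10. At D10 their medians were 0.48, 0.33, 0.28, 0.61 and -0.03 in the order given. An unadjusted p under 0.05 was reached by 6 of 13, 9 of 13, 8 of 20, 5 of 10 and 2 of 19 of their genes, and by 2292 of all 15029 genes tested.

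**Figure D5:**
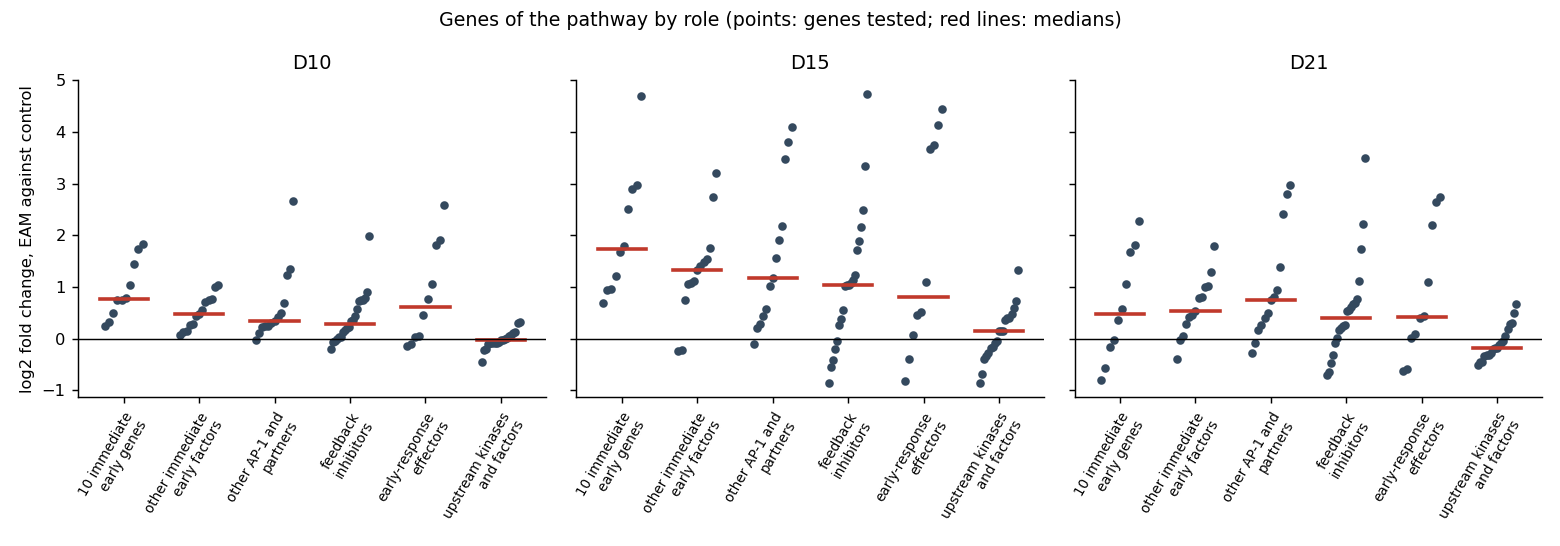
Fitted log2 fold changes of EAM against control hearts for each gene tested, by role, at D10, D15 and D21, with red lines at list medians. The 10 genes have medians of 0.77, 1.73 and 0.47, and the upstream kinases and factors have medians of -0.03, 0.14 and -0.18.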

How the data were processed

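Bulk RNA of 24 hearts, a portion of each, was sequenced. Per the labels and methods, the authors aligned read pairs to GRCm38 with HISAT2 2.0.4, removed duplicates with Picard and counted reads per gene with featureCounts; they deposited raw counts without normalization, in a table of 41480 features. Of these, 92 are spike-in controls with 0 reads and were left out. Symbols came from GENCODE M21, and 40254 of 41388 identifiers matched.

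Groups were taken from the sample labels. In R 4.3.3 with edgeR 4.0.16, genes reaching 10 reads in 4 or more of the hearts fitted were kept, scaled with TMM and compared with the quasi-likelihood test (estimateDisp, glmQLFit, glmQLFTest) within each day, and p-values were adjusted by Benjamini-Hochberg across every gene kept. Differences of the EAM effect between days came from a fit of all 24 hearts, and control days from the 12 control hearts. SE is the absolute log2 fold change divided by the square root of F. DESeq2 1.42.0, limma 3.58.1, other scalings, limits and filters, other sets of hearts, a replicate block and leaving out each library were alternatives. Tables were made with pandas 2.3.3 under Python 3.11.15 and figures with matplotlib 3.10.9.

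The 10 members and the gene lists were chosen with earlier results of these data known. Genes named are all members, Ptprc, of each list and day the 2 called genes with the largest changes in each direction and a mean of at least 1 CPM, and the 5 genes most like the members across hearts. What a replicate number stands for is not stated in the labels. Deviations of same-numbered EAM and control hearts correlated over 0.1 in all 4 pairs at D21 (r from 0.107 to 0.316) and in 0 of 4 at D15. At D10 they did in 2 of 4, with higher r (0.383 and 0.430, against -0.0889 and -0.100 in the other 2). The numbers were taken as pairs at D21 only, on these correlations alone, which do not show that equal numbers mark pairs. Floors of 3 counts cover counting error only, since reads may come from the same molecule. The fits were tested on simulated data. In simulated D15 counts over 15532 genes, the test recovered 100% of 50 genes raised 4-fold and 64% of 50 raised 2-fold, 100% of 44 lowered 4-fold and 44% of 50 lowered 2-fold, and called 0.013% of the genes left as they were. Every simulated gene had the same biological spread between hearts. The coefficient of variation of the members ranged from 3.40% to 64.9% in D15 EAM hearts, so these shares do not give the recovery of single members.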

Additional observations from a re-analysis of the deposited data

Results flagged for a closer look

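Within groups of 4 hearts, 60 groups of members were tested for a heart far from the others, and 2 stood out, where chance gives about 1 in 20. Jun in D10 EAM heart 4 was 90.9 CPM, below the other 3 at 114 to 116 CPM and nearest to the controls. Nr4a1 in D10 control heart 4 was 39.4 CPM, above the other 3 at 20.6 to 23.5 CPM, and leaving that heart out moved the D10 log2 fold change of Nr4a1 from 0.23 to 0.50.

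The EAM effect differed between days in 3 members by the edgeR contrast of the effects. From D10 to D15 it was larger in Junb by 1.43 and in Egr2 by 2.81 on the log2 scale. The Junb mean of the control hearts fell between these days. From D15 to D21 the EAM effect was smaller in Fosb, with a difference of -2.48, where day and the library code of the D21 EAM hearts cannot be told apart.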

How the results depend on the processing

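The D15 count of 7 members stayed within 1.5 times under all alternatives tried. At D10 it was 0, and DESeq2 called 1 and the fit with all 12 control hearts 4. At D21 it was 0, and 3 members were called at a false discovery rate under 0.05, 3 with DESeq2, 3 with the likelihood ratio test, 2 without a filter on low counts, 1 with the replicate block, 3 with all 24 hearts in the fit and 3 with all 12 control hearts, and between 0 and 4 with a library left out. For the effect at D15 less that at D10 the count of 2 became 1 with limma-voom (Egr2 lost) and 1 without a filter (Junb lost), and lay between 0 and 3 with a library left out, 3 being without D10 EAM heart 1. For D21 less D15 the count of 1 became 6 at a false discovery rate under 0.05, 4 with DESeq2, 4 with the likelihood ratio test and 0 with the replicate block, stayed at 1 with limma-voom (Egr3 in place of Fosb), and lay between 0 and 4 with a library left out. It was 2 without D10 EAM heart 1 or 4, 3 without D15 control heart 1 and 4 without D21 EAM heart 4. Between control days, Junb alone was called without a fold limit, 1 gene from D10 to D15 and 1 from D10 to D21. The D21 log2 fold change of Egr3 was 0.41 and that of Nr4a1 0.033 with all 12 control hearts, and ranged from -0.36 to 0.17 and from -0.33 to 0.0040 with a library left out. In the comparisons within a day, the replicate block changed the call of Atf3 at D21 and of no other member. In the contrasts of the effects between days, it removed the Fosb call from D15 to D21 and kept those of Egr2 and Junb from D10 to D15. The test of the D21 read ratios over pairs, added after seeing the data, gave p of 0.125 or above by an exact test. The cause of these changes was not tested. Egr2, Egr3 and Fosb lay near 1 CPM in control hearts, where counts limit the precision.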

Other observations

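Markers of the other cells of the heart were measured beside the immediate early genes. Of T cell markers, Cd2 (log2 fold change 5.06 at D15 and 4.02 at D21), Cd4 (4.85 at D15) and Cd3d (4.02 at D21) had the largest called changes, and all 6 were called on both days. Of myeloid markers, Itgam (4.94 at D15 and 2.88 at D21), Fcgr1 (3.96 at D15), Lyz2 (2.62 at D21), Cxcr2 (4.65 at D15) and Csf3r (4.45 at D15 and 2.96 at D21) led. Of 4 B cell markers, Cd79b was called at D15 (1.68) and none at D21. Actc1 (-1.45) and Pln (-1.40) of cardiomyocytes, Kdr of endothelium (-1.24) and Rgs5 of pericytes (-1.68) were called lower at D15, and Plin1 of adipocytes (-4.63) at D21. No fibroblast or red blood cell marker was called on any day. At D10 no marker of any of these lists was called by edgeR, as no gene was.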
